A study of Mus musculus with 10 samples.

Results

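Transcripts of 10 genes that hepatocytes express at high levels were counted in RNA-sequencing libraries from mouse jejunum. The genes were Alb, Ahsg, Apoa2, Apoh, Ttr, Serpina3k, Serpina1c, F2, Tat and Bhmt, which are 10 of the 45707 rows of the deposited table. They were selected by name, and on measured values: their normalized counts had been seen to be uneven between the jejunum libraries. That unevenness is therefore described below and is not tested. The 10 libraries came from 5 Vil-Cre mice and 5 Vil-Cre:NDI1 mice, with 1 library per mouse. Both groups carried the Villin-Cre transgene, which drives recombination in the epithelial cells of the intestine. The Vil-Cre:NDI1 mice also carried 1 copy of NDI1, the yeast single-subunit NADH dehydrogenase, placed at ROSA26 behind a lox-stop-lox cassette. All animals were male littermates of 8 to 12 weeks that had been fasted for 16 to 18 h and given water by gavage, and jejunum was collected 1 h later.

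Hepatocytes are the main source of the proteins of blood plasma, which they secrete in large amounts, and they hold enzymes of amino acid breakdown that few other cells make. Alb, Ttr, Apoa2 and Apoh encode carriers of the plasma, Ahsg, Serpina3k and Serpina1c encode circulating glycoproteins and serpins, F2 encodes prothrombin, and Tat and Bhmt encode liver enzymes. In the adult these genes are transcribed together in the liver under a shared set of factors that includes the HNF1, HNF4, FOXA and C/EBP families. Enterocytes share some of that programme, in particular the apolipoproteins of fat export, but are not known as a main source of albumin or prothrombin.

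Values are normalized counts, that is, reads on a gene divided by 1 size factor per library, and the reads behind them were recovered as whole numbers. Each library held between 10145705 and 12371530 reads on genes. NDI1, the check of the labels, had 982 to 2575 normalized counts in the 5 Vil-Cre:NDI1 libraries and at most 1.00 in the 5 Vil-Cre libraries. The tissue label fitted its markers, with 8 enterocyte genes summing to 253278 to 487511 normalized counts in every library. Although all mice were labelled male, Xist, the RNA that coats the inactive X chromosome of female cells, was at 36.4 in Vil-Cre 4, 76.7 in Vil-Cre 5 and 146 in Vil-Cre:NDI1 1, against 0.979 to 7.01 in the other 7 libraries. Counts of called genes with each of these 3 libraries left out singly are given below, and no fit left out all 3 together.

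RefSeq promoter entries of GRCm38.p6 were found for 8 of the 10 genes, not for Ttr or Serpina3k. The 4 windows below are shown because these genes were counted together in the same libraries. Each window also holds a short motif of a liver factor and overlaps no exon of its gene. Each is the 100 bases that precede a transcription start of the table, read 5′ to 3′ on the strand of the gene, and capitals mark the motif matches.
Apoa2, chr1:171224954-171225053, plus strand, with a FOXA match: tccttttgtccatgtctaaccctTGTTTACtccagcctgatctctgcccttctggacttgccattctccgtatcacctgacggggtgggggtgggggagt
Alb, chr5:90460770-90460869, plus strand, with a C/EBP match and an HNF1 half-site: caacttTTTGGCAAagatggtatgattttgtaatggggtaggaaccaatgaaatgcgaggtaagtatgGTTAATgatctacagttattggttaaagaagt
Serpina1c, chr12:103904951-103905050, minus strand, with an HNF1 half-site: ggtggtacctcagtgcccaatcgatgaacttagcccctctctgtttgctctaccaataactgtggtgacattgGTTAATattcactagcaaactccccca
Ahsg, chr16:22891915-22892014, plus strand, with a C/EBP match: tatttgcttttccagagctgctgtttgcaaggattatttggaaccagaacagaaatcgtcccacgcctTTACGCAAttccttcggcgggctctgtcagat

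The motifs were searched on both strands in the 250 bases before each start. The HNF1 half-site was searched as GTTAAT, the C/EBP site as TTGCNNAA and the FOXA site as TGTTTAC, with the C/EBP matches in the Alb and Ahsg windows on the opposite strand. The half-site occurred in 6.43% of the 32851 promoters of the table, the C/EBP letters in 9.56% and the FOXA letters in 3.17%. Among the 9 promoter entries of these genes they occurred in 2, 3 and 2 entries. The window of 100 bases of Apoh also held a FOXA match, but it overlapped an exon and is not shown. The windows of F2, Tat, Bhmt and a second Apoa2 start held no match and are not shown. The Ahsg window lies inside the annotated span of its gene. The HNF4 letters CAAAGTCCA occurred in 0.384% of all promoters and in 0 of these 9 entries. A match is a description of the letters and says nothing of binding in this tissue.

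Alb, albumin, the most abundant protein of plasma, carried the largest counts. Alb lies on chromosome 5 at 90460897 to 90476602 (GRCm38, plus strand). In Vil-Cre mice 1 to 5 its normalized count was 762.5, 63.5, 293.5, 15.2 and 557.5. In Vil-Cre:NDI1 mice 1 to 5 it was 0.980, 17.3, 36.8, 47.0 and 36.4. The libraries Vil-Cre 1, 5 and 3 stood above all the others, Vil-Cre 2 lay next, and Vil-Cre 4 lay inside the range of the Vil-Cre:NDI1 libraries, so that the groups overlapped. The highest library held 778 times the lowest, which rested on 1 read.

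Among the other carriers, Ttr, transthyretin, which carries thyroid hormone and the retinol-binding protein, varied least between libraries. Its normalized counts were 82.2, 35.0, 50.1, 29.3 and 62.2 in the Vil-Cre libraries and 31.4, 16.4, 20.3, 23.5 and 27.0 in the Vil-Cre:NDI1 libraries. No library was below 16.4, and the highest held 5.01 times the lowest. Apoa2, a protein of high-density lipoprotein at chromosome 1, 171225054 to 171226379, had 120.5, 26.3, 39.1, 8.09 and 56.3 in Vil-Cre mice and 19.6, 9.11, 9.68, 11.8 and 17.6 in Vil-Cre:NDI1 mice. Apoh, beta-2-glycoprotein I, had 38.3, 9.85, 19.0, 7.08 and 29.1 against 7.84, 11.8, 17.4, 4.90 and 12.9. For both genes Vil-Cre 1, 5 and 3 were again the highest in that order, and the lowest Vil-Cre library lay within or under the Vil-Cre:NDI1 range. The exons of Apoh (chromosome 11, 108343354 to 108414396) overlap those of Prkca, which runs on the opposite strand and had 13192 reads over all libraries. The strand setting of the counting was not given in the sources used here. Of the 100-base windows of the Apoh transcripts, however, 0 were also present in a transcript of Prkca or another gene, on either strand. Reads trimmed to fewer than 100 bases could still lie inside the overlap, and their part in the Apoh values was not tested.

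The circulating glycoprotein and the serpins showed wider ranges. Ahsg, fetuin-A, which keeps calcium phosphate in solution (chromosome 16, 22891277 to 22899449), had 143.9, 19.7, 49.1, 0 and 88.4 in Vil-Cre mice and 0.980, 0, 7.75, 5.88 and 7.04 in Vil-Cre:NDI1 mice. It had no read in Vil-Cre 4 and in Vil-Cre:NDI1 2, and a count of 0 allows up to 3 reads. Serpina3k, a plasma inhibitor of serine proteases (chromosome 12, 104338486 to 104346144), had 115.9, 22.98, 32.1, 2.02 and 65.1 against 0, 2.73, 7.75, 4.90 and 9.39. Serpina1c, an alpha-1-antitrypsin, had 80.4, 8.75, 55.1, 13.1 and 70.9 against 14.7, 6.38, 12.6, 4.90 and 2.35. In each of these genes Vil-Cre 4 lay within the range of the Vil-Cre:NDI1 libraries, and for Serpina1c Vil-Cre 2 did so too.

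Serpina1c belongs to a cluster of near-identical genes, so its own value is uncertain. Of the 100-base windows of its transcripts, 69.3% were also present in another gene, chiefly Serpina1a, Serpina1d and Serpina1b. Serpina1b had 173.8 in Vil-Cre 1 and 133.1 in Vil-Cre 5, and Serpina1e had 124.3 and 105.9 there, while in Vil-Cre 4 they had 12.1 and 3.03. In Vil-Cre 3, however, Serpina1b had 26.1, below its 58.00 in Vil-Cre 2 and 69.5 in Vil-Cre:NDI1 4, and Serpina1a had 19.04 against 19.7 in Vil-Cre 2. Of the windows of Serpina3k, 4.85% were shared with Serpina3m, and of those of Bhmt, 17.4% were shared, mostly with Gm5096 and Bhmt-ps1. The other 7 genes shared no window.

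F2, prothrombin, the precursor of thrombin (chromosome 2, 91625320 to 91636414), was the least counted of the 10. It had 31.8, 9.85, 17.0, 3.03 and 27.2 in Vil-Cre mice and 1.96, 0.911, 5.81, 2.94 and 1.17 in Vil-Cre:NDI1 mice, and only the Vil-Cre 4 library came within the range of the other genotype. Tat, tyrosine aminotransferase, a fasting-induced enzyme of tyrosine breakdown (chromosome 8, 109990437 to 109999803), had 86.0, 20.8, 27.0, 6.07 and 50.5 against 4.90, 3.64, 2.90, 14.7 and 4.70. The highest value of Tat in the Vil-Cre:NDI1 group, in mouse 4, exceeded that of Vil-Cre 4. Bhmt, which remethylates homocysteine with betaine (chromosome 13, 93616675 to 93637961), had 134.6, 4.38, 60.1, 17.2 and 94.2 against 10.8, 7.29, 8.71, 12.7 and 14.1. Here Vil-Cre 2, not Vil-Cre 4, was the lowest of all 10 libraries.

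**Figure D1:**
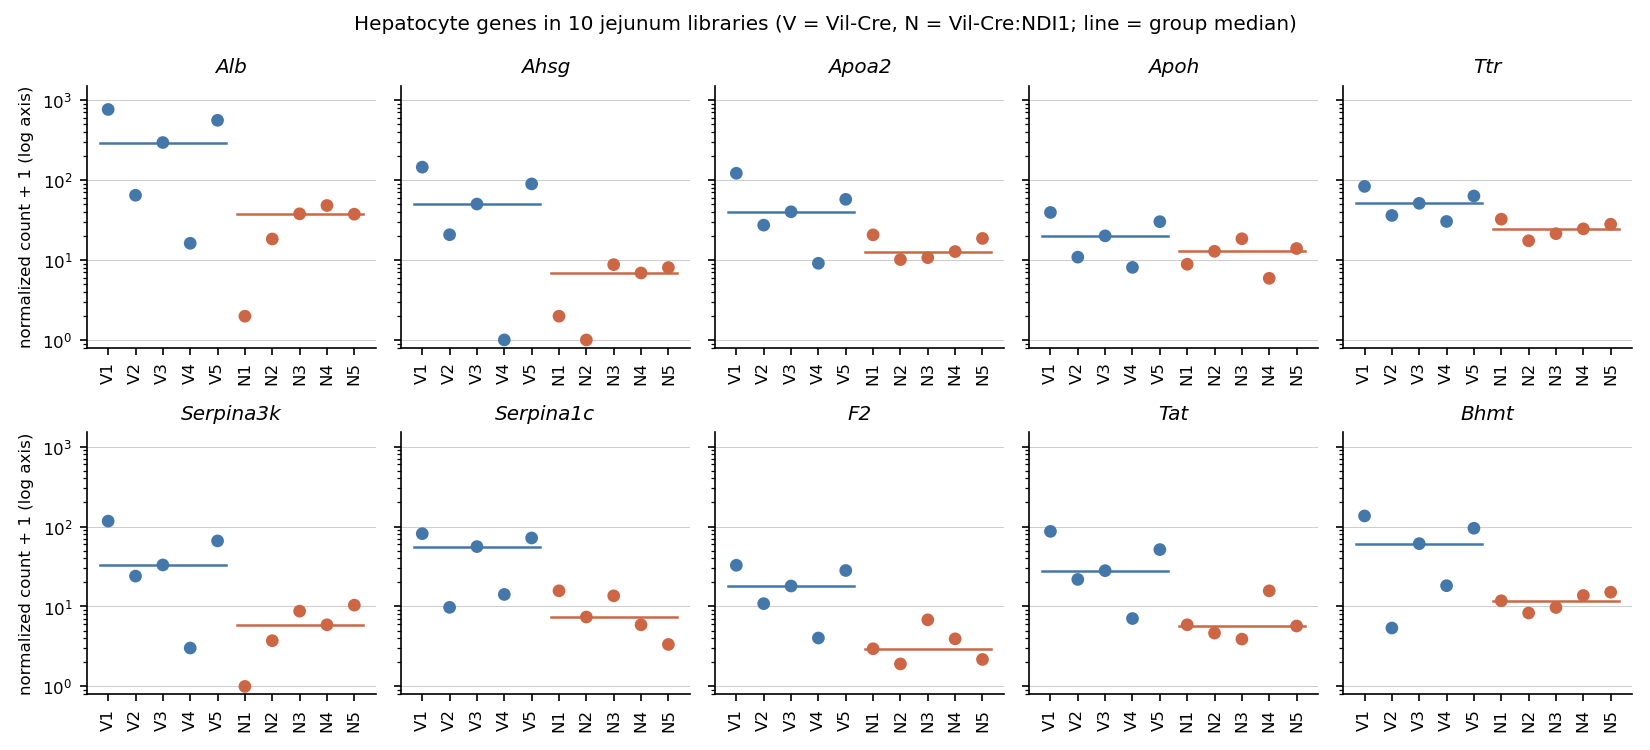
Normalized count plus 1 on a log axis for each of the 10 genes, with 1 point per library, 5 Vil-Cre libraries (V1 to V5) and 5 Vil-Cre:NDI1 libraries (N1 to N5), and a line at each group's median. V1, V5 and V3 are the highest 3 libraries in every panel, and for Alb they reach 762.5, 557.5 and 293.5.

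All 10 genes had the order Vil-Cre 1, Vil-Cre 5, Vil-Cre 3 at the top, an order shown by 42 of the 16587 other genes that reached 10 normalized counts in some library (0.253%). Since unevenness chose the 10 genes, that count is a description. Summed over the genes, the normalized counts were 1596, 221.1, 642.2, 101.1 and 1101 in Vil-Cre mice 1 to 5 and 93.1, 75.6, 129.7, 133.2 and 132.6 in Vil-Cre:NDI1 mice 1 to 5. The Vil-Cre mean was 732.3 ± 622.5 (SD, n = 5) and the Vil-Cre:NDI1 mean 112.9 ± 26.8 (SD, n = 5). The wide spread lay within the Vil-Cre group, whose lowest library, Vil-Cre 4, was inside the range of the Vil-Cre:NDI1 libraries. Vil-Cre 5, the second highest, and Vil-Cre 4 are 2 of the 3 libraries with more Xist. As a share of the reads on genes, the sum was 0.0147% in Vil-Cre 1 (95% Wilson interval 0.0140% to 0.0154%) and 0.000671% in Vil-Cre:NDI1 2 (0.000541% to 0.000832%). In bulk tissue, fewer cells of a type and less RNA per cell cannot be told apart.

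Per kilobase of exon, the mean level in Vil-Cre mice was 144.5 normalized counts per kb for Alb, 93.2 for Apoa2, 43.6 for Ttr, 33.5 for Serpina1c, 27.4 for Ahsg, 23.1 for Serpina3k, 15.8 for Tat, 13.0 for Apoh, 10.8 for Bhmt and 3.87 for F2. In Vil-Cre:NDI1 mice the order of the levels differed at the top, with Apoa2, at 25.2 normalized counts per kb, and Ttr both above Alb at 11.8. F2 was the lowest in both groups, at 0.557 per kb in Vil-Cre:NDI1 mice. In Vil-Cre mice every pair of neighbours in this order lay closer than the larger SD of the pair, and in Vil-Cre:NDI1 mice all did except Ttr with Alb and Bhmt with F2. The length used was that of all annotated exons of a gene merged over its transcripts, such as 4594 bases for F2, 5758 for Bhmt and 537 for Apoa2. Where the transcripts present were shorter than that, the level per kb is understated.

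The make-up of these reads differed between the libraries rich and poor in them. Alb took 47.8%, 45.7% and 50.6% of the reads on the 10 genes in Vil-Cre 1, 3 and 5, which held 1708, 641 and 1134 such reads. In the other libraries, with 83 to 202 such reads, Alb took from 1.05% to 35.3%. For every 100 reads of Alb, Vil-Cre 1, 3 and 5 held 18.9, 16.7 and 15.9 reads of Ahsg, 10.8, 17.1 and 11.1 of Ttr, 17.6, 20.5 and 16.9 of Bhmt, and 4.17, 5.80 and 4.88 of F2. Alb itself ranged from 293 to 816 reads over these 3 libraries.

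**Figure D2:**
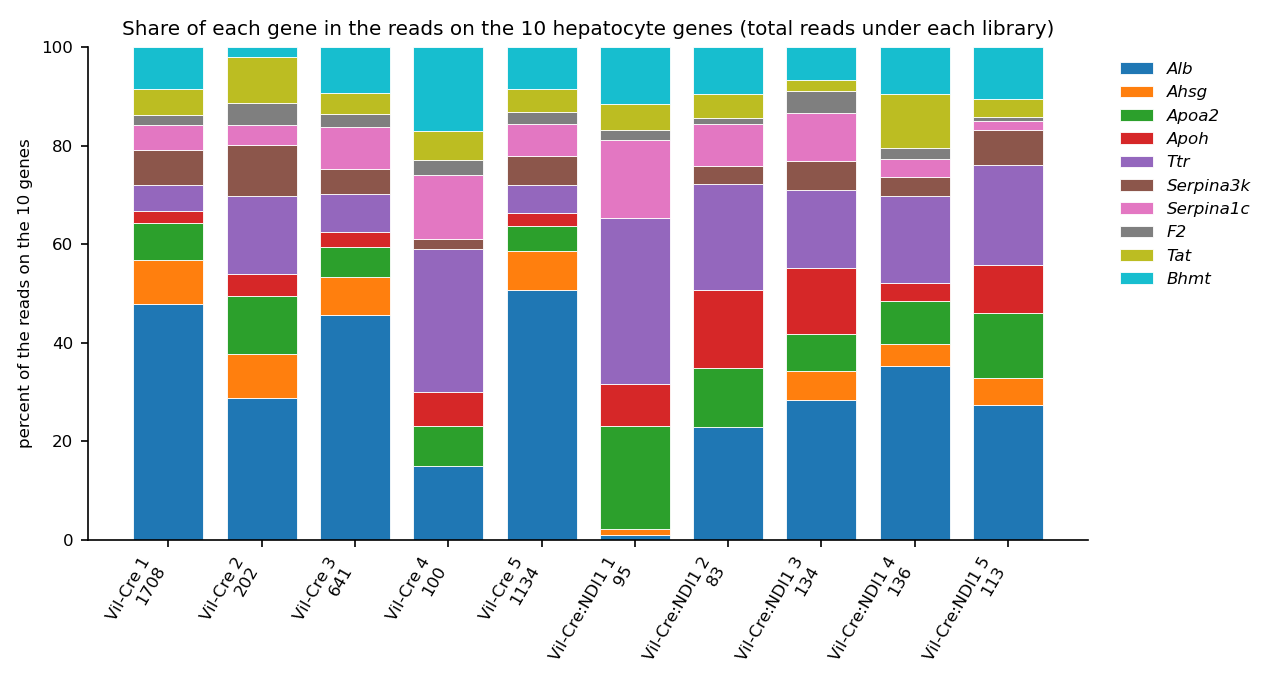
Percent of the reads on the 10 genes that each gene took in each library, stacked to 100, with the number of such reads under the library's name. Alb took 45.7% to 50.6% in Vil-Cre 1, 3 and 5, and Ttr took 33.7% in Vil-Cre:NDI1 1, where Alb took 1.05%.

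In the library with the least Alb, Vil-Cre:NDI1 1, the counts of the 10 genes were far from their proportions in Vil-Cre 1. Alb and Ahsg had 1 read each, Serpina3k 0, F2 2 and Tat 5. Ttr had 32 reads there, Apoa2 20, Serpina1c 15, Bhmt 11 and Apoh 8. At the proportions of Vil-Cre 1, 1 read of Alb would go with 0.108 reads of Ttr and 0.158 reads of Apoa2. The same held in Vil-Cre 4, where 15 Alb reads stood beside 29 of Ttr and 17 of Bhmt, against 1.62 and 2.65 at the proportions of Vil-Cre 1. Ttr, Apoa2, Serpina1c, Bhmt and Apoh were therefore counted in both libraries beyond what their proportion to Alb in Vil-Cre 1 would give. So were Tat, with 5 reads against 0.113 in Vil-Cre:NDI1 1 and 6 against 1.69 in Vil-Cre 4, and F2, with 2 against 0.0417 and 3 against 0.625, though on few reads. Ahsg and Serpina3k had no more than 2 reads in either library. Bhmt behaved otherwise in Vil-Cre 2, with 4 reads against 10.2 at those proportions, while Ttr had 32 against 6.26. Such an excess was not confined to Vil-Cre:NDI1 1 and Vil-Cre 4. In Vil-Cre:NDI1 2, 3, 4 and 5, Ttr had 18, 21, 24 and 23 reads against 2.05, 4.10, 5.18 and 3.34. Apoa2, Apoh and Bhmt were above those proportions in each of them too, and Serpina1c in Vil-Cre:NDI1 2 and 3 only. Vil-Cre:NDI1 1 and Vil-Cre 4 are among the 3 libraries with more Xist. Vil-Cre 5, the other of these 3, had 64 reads of Ttr against 61.9. The part of the Xist difference in these proportions was not tested.

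**Figure D3:**
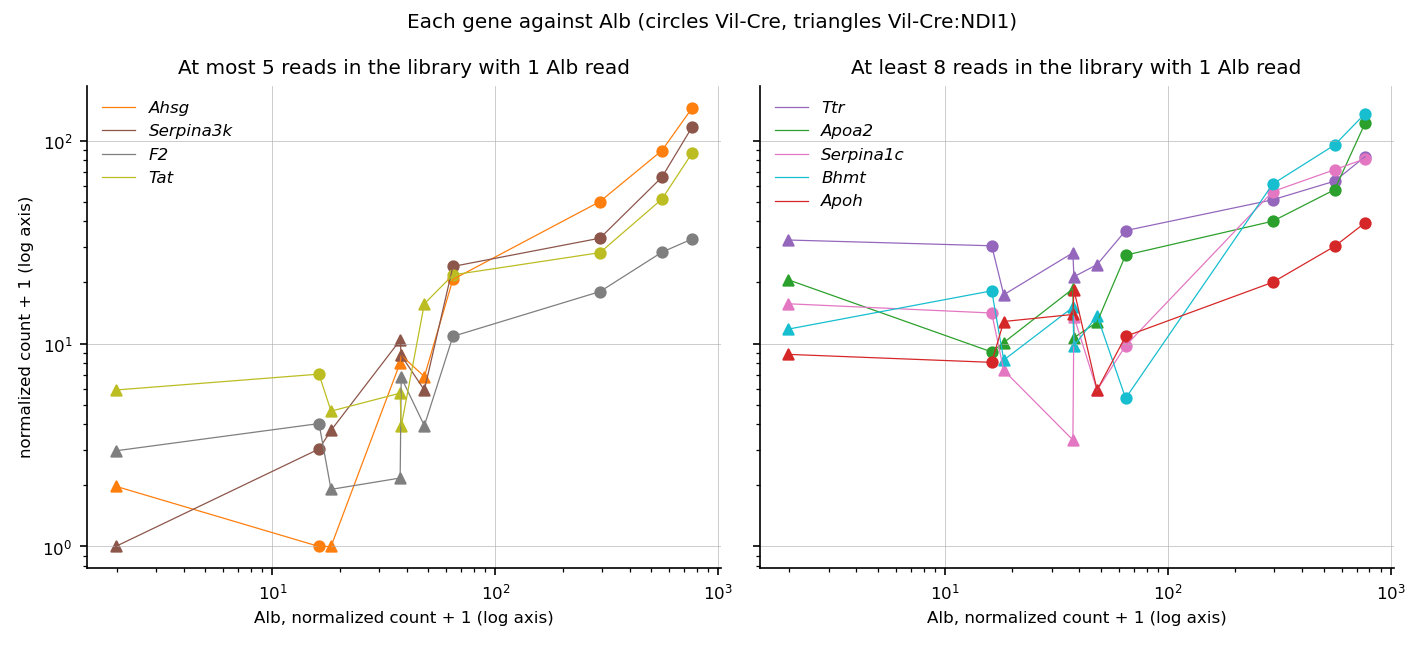
Normalized count plus 1 of each of the other 9 genes against that of Alb, both on log axes, with circles for Vil-Cre and triangles for Vil-Cre:NDI1 libraries and lines joining a gene's points in order of Alb. The left panel holds the 4 genes with at most 5 reads in Vil-Cre:NDI1 1, where Alb had 1 read, and the right panel the 5 genes with at least 8 reads there, a split made after the values were seen.

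Across the 10 libraries, Pearson's r between the log2(normalized count + 1) of a pair of these genes lay between 0.595 (Apoh with Tat) and 0.972 (Alb with Serpina3k) over the 45 pairs, with a median of 0.807. The pairs share their libraries and were chosen for a shared unevenness, so these values are descriptions. The 10 other genes most like the summed members over the 10 libraries were Ass1 (r = 0.982), Fgg, Itih2, Hpx, Fgb, Mup3, Mat1a, Gc, Mup7 and Itih4 (r = 0.941), of 16587 genes whose median r was 0.0146. Fgg and Fgb encode chains of fibrinogen, Hpx the heme carrier hemopexin, Gc the vitamin D-binding protein, and Mat1a the liver form of methionine adenosyltransferase. Ass1, the argininosuccinate synthase of the urea cycle, had 184.1, 81.0, 126.2, 72.8 and 155.4 in Vil-Cre mice and 59.8 to 86.2 in Vil-Cre:NDI1 mice. Fgg had 56.1, 2.19, 16.03, 0 and 31.1 against 0 to 2.90, and Mat1a had 131.8, 12.04, 41.1, 1.01 and 75.8 against 0 to 8.22.

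Other hepatocyte genes were counted in the same libraries. The list of 24 other secreted proteins had reads for all 24 genes, and 21 had at least 10 normalized counts in a library. Of these 21, 14 were highest in Vil-Cre 1 and 4 in Vil-Cre 5, where 7.69% of all other genes were highest in Vil-Cre 1. Their median r with the summed members was 0.87. Serpinc1, antithrombin, had 126.2, 37.2, 174.3, 34.4 and 96.2 in Vil-Cre mice and 33.7 to 56.3 in Vil-Cre:NDI1 mice. Rbp4, the retinol carrier that travels with transthyretin, had 108.4, 37.2, 63.1, 16.2 and 49.5 against 9.80 to 26.4, and Hp, haptoglobin, had 97.2, 29.6, 46.1, 1.01 and 53.4 against 1.96 to 16.5. Mbl2, a mannose-binding lectin and the most counted of the list, had another pattern, with 105.6, 70.0, 330.6, 420.6 and 35.9 against 90.4 to 322.4 and an r of -0.54.

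All of the 23 other liver enzymes and carriers had a read, and 13 had at least 10 normalized counts in a library. Of these 13, 6 were highest in Vil-Cre 1, against the 7.69% of all other genes, 11 had an r above 0 with the summed members, and the median r was 0.74. Hsd17b13, a lipid-droplet protein, had 282.6 to 553.0 in Vil-Cre and 359.4 to 652.6 in Vil-Cre:NDI1 mice, with an r of -0.46. Cyp2e1, a cytochrome P450, had 429.8, 447.6, 269.5, 13.1 and 96.2 against 5.88 to 185.9, and so was low in the libraries Vil-Cre 4 and Vil-Cre:NDI1 1 but not high in Vil-Cre 5. Hpd, which acts after Tat in tyrosine breakdown, had 161.7, 117.1, 104.2, 54.6 and 128.2 against 52.0 to 113.9 (r = 0.77). Sardh had 30.1 to 156.3 against 68.5 to 243.0 and an r of -0.27. Cyp7a1, the rate-limiting enzyme of bile acid synthesis, had 1 read in all libraries together, and Cyp1a2 had at most 4.67 normalized counts.

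Some male-biased liver genes were also counted in these libraries. The sums of the 11 genes of the list were 495.3, 59.1, 123.2, 35.4 and 251.5 in Vil-Cre mice and 18.6 to 51.7 in Vil-Cre:NDI1 mice. Mup7, one of the urinary proteins that carry pheromones, had 223.3, 6.57, 24.04, 8.09 and 108.8 against 0 to 5.87, Mup11 had 142.0 in Vil-Cre 1, and Mup20 had 70.1. The Mup genes are near-identical copies, so reads may be split among them. Together these 3 made up 435.4 of the 495.3 in Vil-Cre 1. Of the rest of the list, Hsd3b5 was at 0 in every library, Cyp4a12a, Cyp4a12b, Elovl3 and Slco1a1 had at most 2.91 in any library, and Cyp7b1 was highest in Vil-Cre 2 (r = 0.20). Of 10 female-biased liver genes, 4 were at 0 in every library, and Cyp3a44, the most counted, had 38.3 to 71.1 against 19.6 to 58.3.

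Markers of other cells did not share one pattern with the 10 genes. The 11 genes that liver and enterocytes both express, led by Apoa4, Apoa1 and Apob, summed to 234477 to 493909 normalized counts, were lowest in Vil-Cre 5, and had a median r of -0.48 with the members. The 8 enterocyte genes had a median r of -0.40. The 6 Kupffer cell genes, which mark the macrophages of liver sinusoids, summed to 5.88 to 16.5 in 9 libraries and to 44.7 in Vil-Cre 5, where Timd4 had 20.4, Cd5l 11.7 and Marco 9.71. The defining Kupffer gene Clec4f was at most 5.61 in Vil-Cre and at most 8.71 in Vil-Cre:NDI1 libraries. Of 6 genes of liver sinusoidal endothelium, Clec4g was at 0 in every library, and the sums, 68.1 to 212.7 in Vil-Cre and 55.2 to 125.5 in Vil-Cre:NDI1 libraries, were led by Dnase1l3 and Fcgr2b, which other cells also express.

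The pancreas and fat lie beside the jejunum. Of 11 acinar genes 5 were at 0 in every library, and nearly all of the sum, 269.0 to 1189, came from Clps, the colipase. The 2 acinar genes with an r, Clps and Pnliprp1, had 0.56 and 0.61 with the summed members. The 8 adipocyte genes summed to 1205 to 3749, highest in Vil-Cre 2 and lowest in Vil-Cre 4 and 5, and had a median r of 0.19. Much of these sums came from Cidec, with 1103 of the 1205 in Vil-Cre 4, 1494 of the 1616 in Vil-Cre:NDI1 1 and 1650 of the 3749 in Vil-Cre 2. Adipoq, the fat hormone adiponectin, had 113.1, 164.2, 72.1, 1.01 and 7.77 in Vil-Cre mice, 0 in Vil-Cre:NDI1 1, and 48.3 to 66.8 in Vil-Cre:NDI1 2 to 5. The libraries with least Adipoq, Vil-Cre:NDI1 1, Vil-Cre 4 and Vil-Cre 5, were those with most Xist, and they include both the lowest 2 and the second highest library for Alb. The part of these cell types in the values of the 10 genes was not tested.

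**Figure D4:**
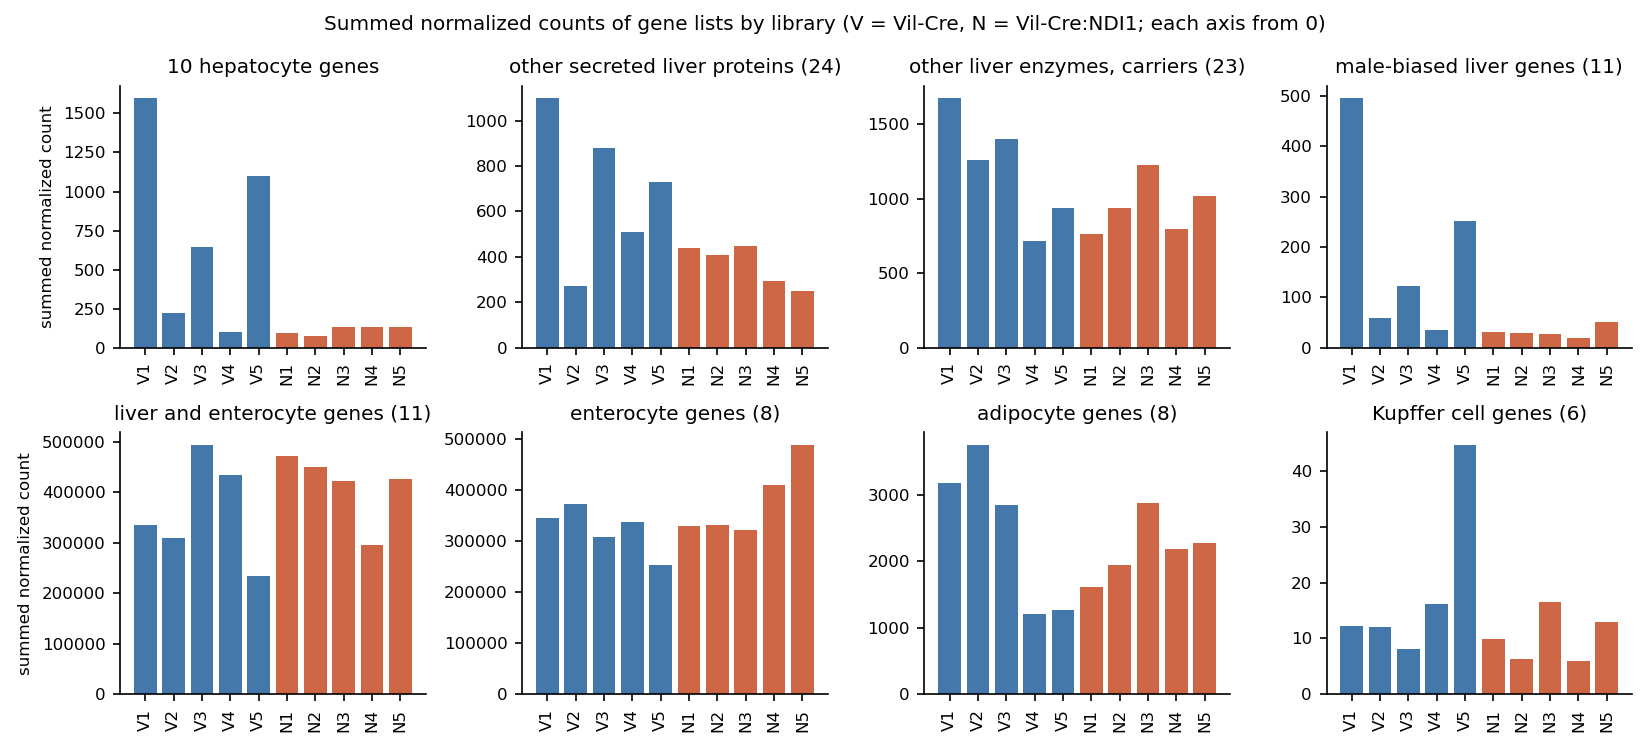
Summed normalized counts of 8 gene lists in each library, with each axis starting at 0, V1 to V5 for Vil-Cre and N1 to N5 for Vil-Cre:NDI1 mice. The 10 hepatocyte genes reach 1596 in V1 and 1101 in V5, the male-biased liver genes 495.3 and 251.5 there, whereas the enterocyte genes stay between 253278 and 487511.

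The design asks whether NDI1 in the epithelium changed transcript levels. The rule names no genotype, but the unevenness it used lay mostly within Vil-Cre mice and bears on this contrast too, so the genotype values below are a description of it. With limma on log2(normalized count + 1), over genes that reached 10 normalized counts in 5 or more mice, 7 of the 10 genes were tested, and Ahsg, Serpina3k and F2 did not pass the filter. Of these 7, 0 passed an adjusted p of 0.05 (each adjusted p = 0.998, limma), where 0.00699% of all 14301 genes did, namely NDI1 alone. At an unadjusted p under 0.05, 6 of the 7 were lower in Vil-Cre:NDI1 mice, against 2.11% of all genes. With edgeR on the recovered reads, 0 of 7 passed, against 0.007% of all 14290 genes, and 6 were lower at an unadjusted p under 0.05, against 2.67% of all genes. The median log2 difference of the 7 genes was -1.72, and that of all genes tested was 0.0052.

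The log2 differences, Vil-Cre:NDI1 over Vil-Cre, were -3.14 for Alb (limma, 95% interval -5.62 to -0.66), -2.20 for Tat (-3.59 to -0.81), -2.10 for Serpina1c (-3.57 to -0.64), -1.72 for Bhmt (-3.38 to -0.07), -1.41 for Apoa2 (-2.67 to -0.14), -1.03 for Ttr (-1.69 to -0.37) and -0.72 for Apoh (-1.79 to 0.35). Without the filter, Ahsg was at -2.76, Serpina3k at -2.64 and F2 at -2.22. The 2 genotypes overlapped for every one of the 10 genes, through Vil-Cre 4 or Vil-Cre 2. Single-gene exact permutation tests over all assignments of the mice (two-sided) gave p = 0.0159 for Ttr, F2 and Tat, p = 0.0397 for Serpina1c, p = 0.0476 for Serpina3k and 0.0635 to 0.206 for the other 5 genes, with 0.00794 the smallest that 5 mice against 5 allow. Both kinds of p are unadjusted for how the genes were chosen.

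The count test of the study was DESeq2 with a local dispersion fit, and run on the recovered reads it did call some of these genes. Its adjusted p covers the number of genes tested but not how the 10 genes were chosen, so these calls too are a description. Tat (log2 difference -2.63 ± 0.65 SE) and Serpina3k (-3.28 ± 0.82) were lower in Vil-Cre:NDI1 mice at adjusted p = 0.0387 (DESeq2), and F2 (-2.79 ± 0.71), Bhmt (-2.54 ± 0.65) and Serpina1c (-2.47 ± 0.63) at adjusted p = 0.0489. These 5 are among 15 genes called lower, 0.0884% of all 16976 genes with an adjusted p, and Mup7 is another of the 15. Alb had the larger log2 difference of -3.61 ± 1.02 but an adjusted p of 0.107. The calls depended on single libraries. Without Vil-Cre 1, without Vil-Cre 5 or without Vil-Cre:NDI1 2, DESeq2 called 0 of the 10 genes, and without Vil-Cre 4 it called 9. Over all genes it called 36 of 18752, 27 of 18790 and 25 of 17287 in the first 3 of these fits. Without Vil-Cre 4 it called 112 of 19796, 75 of them lower, against 31 of 16976 with all 10 libraries. Without Vil-Cre 3, Vil-Cre:NDI1 4 or Vil-Cre:NDI1 5 it called 1 of the 10, without Vil-Cre:NDI1 1 it called 2, without Vil-Cre:NDI1 3 it called 3, and without Vil-Cre 2 it called 5. In the same order, the calls over all genes were 56 of 18800, 45 of 15297, 31 of 16330, 62 of 16271, 44 of 19329 and 45 of 16291. Of the 3 libraries with more Xist, leaving out Vil-Cre 4 thus raised the calls both among the 10 genes and over all genes. Leaving out Vil-Cre 5 lowered both. Leaving out Vil-Cre:NDI1 1 lowered the calls among the 10 genes and raised those over all genes.

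**Figure D5:**
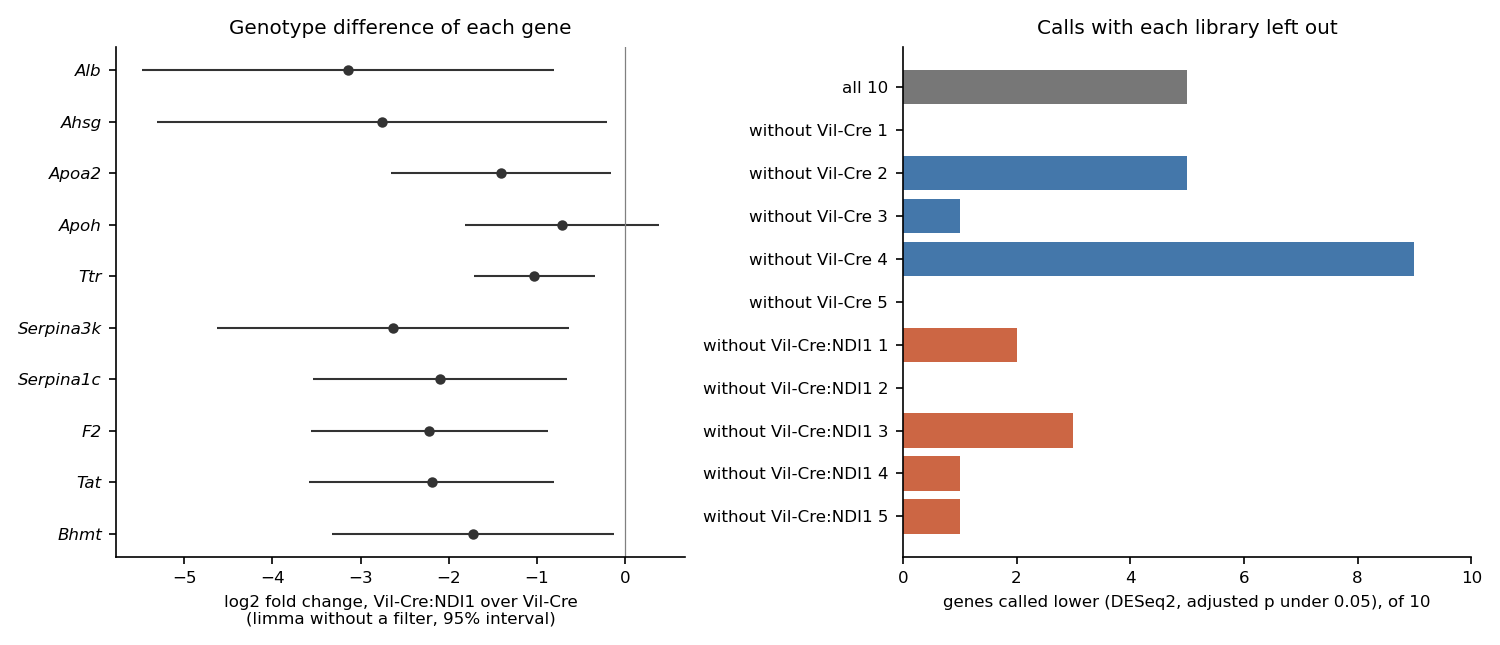
The left panel gives the log2 difference, Vil-Cre:NDI1 over Vil-Cre, of each of the 10 genes with its 95% interval from limma without a filter, and the right panel the number of the 10 genes that DESeq2 called lower at an adjusted p under 0.05 with all 10 libraries and with each library left out. All 10 differences are below 0, the calls number 5 with all libraries, and they range from 0 without Vil-Cre 1, Vil-Cre 5 or Vil-Cre:NDI1 2 to 9 without Vil-Cre 4. Over all genes, not drawn, the calls in either direction numbered 31 with all libraries and 25 to 112 with a library left out.

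The lists of 24 other secreted proteins and of 23 other enzymes and carriers, which the rule did not take, gave no call with limma, edgeR or DESeq2. Not all of their genes were tested: DESeq2 gave an adjusted p for 20 and 14 of them, and edgeR tested 7 and 8. Over all genes DESeq2 called 0.0884% lower, so few or no calls in lists of this size say little. Of the 24 secreted proteins, 7 were tested with limma and 0 passed the adjusted threshold, 6 of the 7 were lower and 2 had an unadjusted p under 0.05, with a median log2 difference of -0.93. Of the 23 enzymes and carriers, 8 were tested, 0 passed, 6 were lower and 4 had an unadjusted p under 0.05, with a median of -0.83. Over all genes tested, 48.8% were lower and 2.11% were lower at an unadjusted p under 0.05. Rbp4 had a log2 difference of -1.44 (limma, adjusted p = 0.998) and Serpinc1 of -0.93 (limma, adjusted p = 0.998). Both lists were written with earlier results of these libraries known.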

How the data were processed

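RNA sequencing of jejunum from 5 Vil-Cre and 5 Vil-Cre:NDI1 mice was analysed from the deposited table. Per the study's methods, single-end reads were trimmed (trimGalore!), aligned (STAR) to GRCm38 carrying an added NDI1 sequence and assigned to genes (Salmon). The authors then divided gene counts by 1 DESeq2 size factor per library, so the deposited unit is a signal of normalized counts. The annotation release and the strand setting are not given in the sources used here. Every library had a smallest step, the worth of 1 read, that divided 100% of its non-zero values into whole numbers (tolerance 0.01), and reads were recovered so. For Vil-Cre 3 and 4 that step, 1.002 and 1.011, lay near to 1 but could be told from it. Ahsg, for example, had 49.09 from 49 reads in Vil-Cre 3, and Apoa2 had 8.089 from 8 reads in Vil-Cre 4. Count tests were also run on the other 8 libraries. That choice leaves out Vil-Cre 4, the Vil-Cre library with the lowest sum of the hepatocyte genes. Depth was 10145705 to 12371530 reads per library, and 26289 genes had a read. Intervals (95%, Wilson) and the floor of 3 reads cover counting error only.

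Genotypes were compared with limma 3.58.1 in R 4.3.3 (eBayes with a variance trend) on log2(value + 1), a scale that understates changes of low genes, over genes that reached 10 in 5 or more mice, adjusted by Benjamini-Hochberg. DESeq2 1.42.0 (local fit) and edgeR 4.0.16 (quasi-likelihood, TMM) on recovered reads were alternatives, and the fits were tested on simulated data. The other alternatives were pseudocounts of 0.1 and 8, other filters, equal totals, a replicate block and leaving out each library. Genes were placed by their identifiers in GENCODE M21, where 45143 were found, and promoters come from a RefSeq table of GRCm38.p6. The named genes are the 10 members, the 10 genes with the highest r, up to 4 genes of highest mean per marker list, and NDI1, and genes outside this rule, such as Xist, Adipoq, Prkca, Cyp7a1, Cyp1a2, Clec4f, Clec4g, Cd5l, Marco and the Serpina1 copies, were chosen after their values were seen. The 10 members and all lists were chosen with earlier results of these data known.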

Additional observations from a re-analysis of the deposited data

Results flagged for a closer look

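Each of the 10 genes and their sum were examined in both groups of 5 libraries for a value far from the other 4, as a description only, since unevenness between libraries chose the genes. In 1 of these 22 groups a library lay far from the rest: Tat had 14.7 normalized counts in Vil-Cre:NDI1 4, while the remaining libraries of the group had 2.90 to 4.90. Its gap to the next library was 0.831 of the range of the group, above Dixon's critical value of 0.71 for 5 samples. Chance flags about 1 in 20 such groups. Alb in that library, at 47.0, was the highest of its group, and Bhmt, at 12.7, was within the range of its group. No such flag arose in the Vil-Cre group, where several libraries and not a single one were high.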

How the results depend on the processing

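The count of genes called by limma was 1 at both other pseudocounts, with no filter, with a filter on the mean, with equal totals, with edgeR and with edgeR on 8 libraries, and the count of the 10 hepatocyte genes called was 0 under each of these. DESeq2 called 31 genes and 5 of the 10, and on the 8 libraries without Vil-Cre 3 and 4 it called 276 and 9. Leaving out single libraries gave 1 to 112 genes called, where the upper values come from DESeq2 (25 to 112) and limma gave 1 to 3, and 0 to 9 of the 10 genes, all from DESeq2, since limma gave 0 each time. The DESeq2 fits on 8 and on 9 libraries were chosen after seeing the data. Same-numbered libraries did not deviate together (correlations from -0.12 to 0.14), which cannot tell whether they shared a litter, cage or batch. With the replicate block limma called 1 gene and 0 of the 10, while the difference of the sum stayed at -2.11. The sum of the 10 genes differed by -2.11 on the log2 scale (Vil-Cre:NDI1 minus Vil-Cre), by -1.79 without Alb, by -1.99 with equal weight per gene, and by -2.67 to -1.68 with a library left out. In all 262 values of the single genes over all settings the difference was below 0. These values refit the same libraries and the same genes, which were chosen for an unevenness mostly within Vil-Cre mice. Their shared sign is therefore a description and not separate evidence. Of the 10 genes most like the members, 8 remained among the first 10 with equal weights and 3 with Spearman's rho. At this depth, counts under about 10 carry wide counting error, which limits F2, Ahsg and Serpina3k most.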
